A study of Mus musculus with 24 samples.

Results

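Injured proximal tubules of male mice (M) were compared with those of female mice (F). The comparison rests on 6 of the 24 libraries of the study, 3 from IRI M PTs and 3 from IRI F PTs, and on the autosomal genes alone, of which 17743 passed the filter on low counts. Expression is given per library as CPM, a count per library size after TMM normalisation, not scaled by transcript length, and differences as log2 of M over F ± SE. All mice were of the inbred FVB strain. The injured groups had acute kidney injury, ischemic per the title of the study (IRI), and the Sham M PTs and Sham F PTs groups, 3 mice each, had sham surgery. After enzymatic digestion of the kidney, proximal tubules (PTs) were picked by microdissection, and poly-A RNA was sequenced. The labels describe RNA of 3 male and 3 female mice per group, and each library of a group is read as its own mouse. Age, the length of ischemia and the time from injury to collection are not given in the sources used here, and the labels name no treatment of gonadal hormones, so chromosomal and hormonal sex cannot be told apart.

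The proximal tubule reabsorbs most of the filtered sodium, phosphate, glucose, amino acids and small proteins, secretes organic ions, and depends on mitochondrial oxidation of fatty acids. In mice it is a markedly sex-biased tissue: androgens drive a set of transporters, cytochrome P450 enzymes and conjugating enzymes in males, and another set is higher in females. After ischemia its cells lose transporters, and surviving cells switch on injury genes such as Havcr1 (KIM-1) and Lcn2 (NGAL), stress pathways and chemokines. Male rodents are known to be more susceptible to ischemic kidney injury than females.

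The 6 libraries held 41703814 to 47176088 estimated reads, with 9.98 to 16.2% in mitochondrial genes. The IRI M PTs library of replicate 3 stood apart. Across autosomal genes, log2 expression of M replicates 1 and 2 correlated at Pearson's r of 0.9755, and M replicate 3 correlated with them at 0.9271 and 0.9346, against 0.9663 to 0.9811 among the F libraries. Of the 4122 genes called below, M replicate 3 was the M library nearest to F in 3441 (83.5%), M replicate 1 in 362 and M replicate 2 in 307. Values are therefore given for each library, and the counts also without M replicate 3.

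Markers of the picked cell type were abundant: all 26 proximal tubule markers were above 1 CPM in at least 1 library, and their summed level was 6099, 4534 and 5823 TPM (a level scaled by transcript length) in injured M tubules, against 10170, 8766 and 8687 TPM in injured F tubules. Markers of the distal nephron were present too. Those of the thick ascending limb summed to 1979, 1764 and 1018 TPM in M, against 3099, 3318 and 2383 TPM in F. Collecting duct principal cell markers summed to 211, 179 and 175 TPM in M, against 494, 413 and 328 TPM in F. Intercalated cell markers summed to 65.1, 76.8 and 62.9 TPM in M, against 198, 154 and 175 TPM in F. In each of these 4 lists every M library lay below every F library in TPM, while in CPM the principal cell sums overlapped (1486, 1249 and 664.5 CPM in M, against 1517, 1295 and 1183 CPM in F). Distal convoluted tubule markers overlapped in TPM too, at 956, 1604 and 549 TPM in M, against 2220.0, 1593 and 1766 TPM in F. A score was taken over 33 distal markers (mean log2 deviation from the 12 tubule libraries), among them Avpr2, which is not autosomal. The score was -0.23, -0.08 and -0.64 in injured M tubules, against 0.99, 0.99 and 0.92 in injured F tubules, and ran from -0.76 to 0.37 in sham libraries. In bulk tubules, fewer cells of a type and less RNA per cell cannot be told apart.

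**Figure D1:**
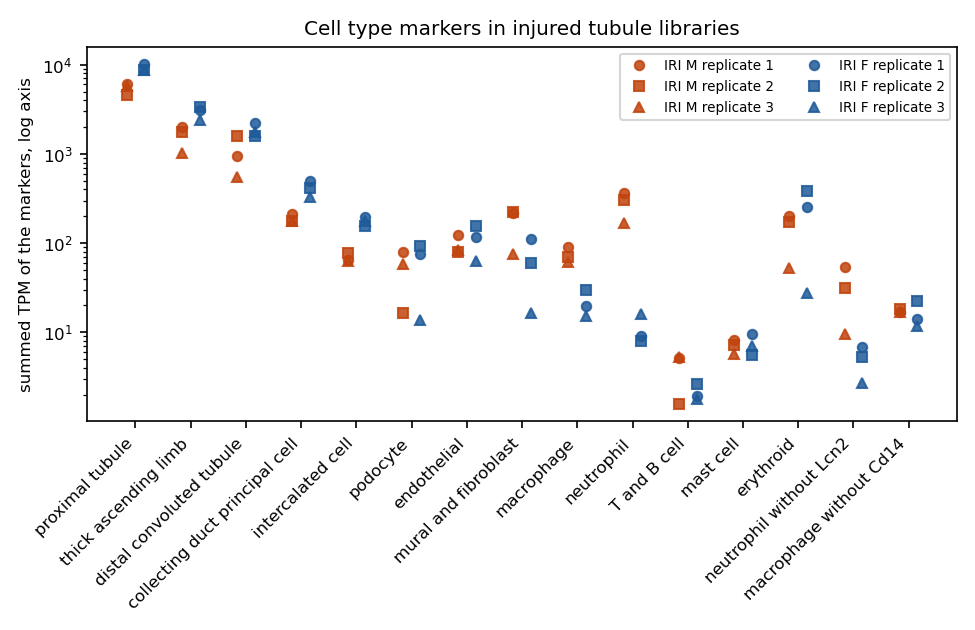
Summed TPM (log axis) of 13 cell type marker lists, of the neutrophil list without Lcn2 and of the macrophage list without Cd14, in the 3 injured M libraries (orange, left) and the 3 injured F libraries (blue, right); each point is 1 library. Proximal tubule sums lie between 4534 and 6099 TPM in M, below the 8687 to 10170 TPM of F, the distal convoluted tubule sums overlap, and the macrophage sums are higher in every M library with Cd14 but overlap without it.

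After injury the sexes differed over a wide part of the genome's expressed genes. Of 17743 autosomal genes tested, 4122 (23.2%) were called at an adjusted p under 0.05 with edgeR's quasi-likelihood test: 2283 higher in M (12.9%) and 1839 higher in F (10.4%). These called genes include 3744 protein-coding genes. Of them, 2373 differed by over 2-fold, and over 8-fold differences numbered 269 higher in M and 102 higher in F. The 3 M and 3 F libraries did not overlap for 6982 genes (39.4% of those tested), and for 3755 of the 4122 called. The median log2 difference over all autosomal genes was -0.05. The count of calls was 8248 when M replicate 3 was left out, which is 44.2% of the 18652 genes then tested, 3847 higher in M (20.6%) and 4401 higher in F (23.6%). Each list's count below, with and without M replicate 3, stands against these shares. Of the 34 lists other than cell type markers, 5 had a share of called genes no more than 6 percentage points above the 23.2% over all genes: the interferon and MHC class I (28.6%), respiratory (27.6%), MHC class II (20.0%), cholesterol (16.7%) and cell cycle (10.7%) lists. Without M replicate 3, 7 lists were no more than 6 points above 44.2%: the cell death (47.4%), polyamine (42.9%), immediate early (40.9%), respiratory (37.9%), hormone receptor and steroid enzyme (37.5%), MHC class II (30.0%) and cell cycle (28.6%) lists. Of 174 called genes considered for naming, 139 kept the call whichever of the 12 tubule libraries was left out, and Spp1 and Slc22a6 lost it without M replicate 3.

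**Figure D2:**
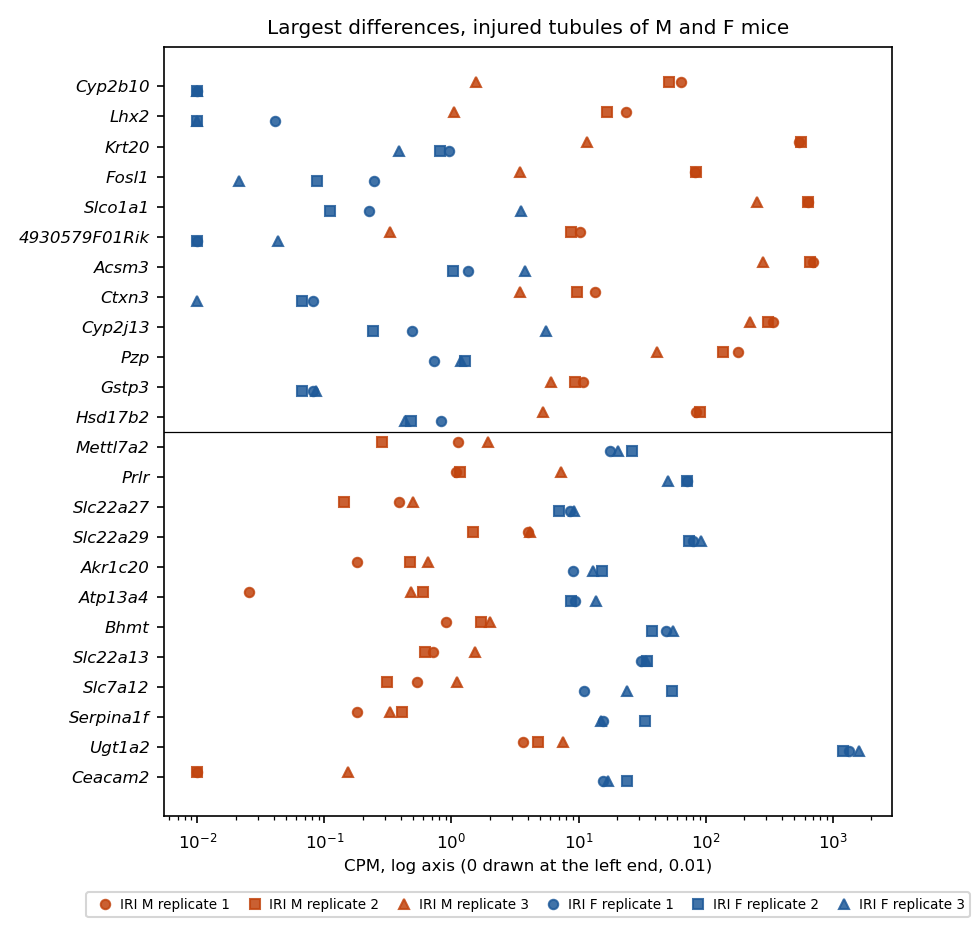
CPM (log axis) of the 12 autosomal genes with the largest differences in each direction; every point is 1 library, orange for injured M, blue for injured F, with the replicate by shape. The groups do not overlap for any of the 24 genes, and M replicate 3 (orange triangle) is the lowest M library for each of the 12 genes higher in M.

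Among the 12 largest autosomal differences in favour of M, Cyp2b10, a xenobiotic-inducible cytochrome P450, had 63.6, 51.5 and 1.57 CPM in injured M tubules, against 0, 0 and 0 CPM in injured F tubules. With 4721 reads in M and 0 in F it was at least 1670-fold higher in M, against a floor of 3 counts over the F group (adjusted p = 0.0079). That bound ran from 1090-fold (without F replicate 1) to 2700-fold (without M replicate 3) when 1 injured library was left out. Lhx2, a LIM homeobox transcription factor, had 23.8, 16.9 and 1.06 CPM in injured M tubules, against 0.0407, 0 and 0 CPM in injured F tubules. Its 1688 reads in M and 2 in F, both in F replicate 1, gave a ratio of 896 with an exact 95% counting interval of 248 to 7400. The Lhx2 ratio was 573 without M replicate 1 and 1420 without M replicate 3, and without F replicate 1 it was at least 389. 4930579F01Rik had 10.2, 8.71 and 0.326 CPM in injured M tubules, against 0, 0 and 0.0429 CPM in injured F tubules. It held 781 reads in M and 2 in F, both in F replicate 3, a ratio of 414 (114 to 3430), which was 270 without F replicate 1, 666 without M replicate 3 and at least 185 without F replicate 3. For these 3 genes M replicate 3 was far below the other M libraries, and the intervals cover counting error only.

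Krt20, the simple epithelial keratin 20 (GRCm38 chr11:99428403-99438150, minus strand), had 541, 568 and 11.6 CPM in injured M tubules, against 0.956, 0.815 and 0.386 CPM in injured F tubules (log2 difference 9.01 ± 1.33, adjusted p = 0.0015). M replicate 3 lay far below the other M libraries but still above every F library, and sham tubules of both sexes were under 1 CPM. Fosl1, the AP-1 subunit FRA-1, showed the same order, with 82.4, 83.2 and 3.43 CPM in injured M tubules, against 0.244, 0.0881 and 0.0214 CPM in injured F tubules (log2 difference 8.84 ± 1.46, adjusted p = 0.0025). Hsd17b2, which oxidises estradiol and testosterone to weaker steroids, had 83.5, 89.7 and 5.24 CPM in injured M tubules, against 0.834, 0.485 and 0.429 CPM in injured F tubules (log2 difference 6.66 ± 1.27, adjusted p = 0.0052). For these 3 genes the M libraries ranged over a wide span, and the groups did not overlap.

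Slco1a1, the organic anion transporter OATP1A1, had 641, 643 and 252 CPM in injured M tubules, against 0.224, 0.11 and 3.54 CPM in injured F tubules (log2 difference 8.63 ± 2.13, adjusted p = 0.016); its call was lost without F replicate 1 or without F replicate 2. Acsm3, a mitochondrial acyl-CoA synthetase for medium-chain fatty acids, had 702, 663 and 281 CPM in injured M tubules, against 1.34, 1.04 and 3.77 CPM in injured F tubules (log2 difference 8.06 ± 1.51, adjusted p = 0.0047). Every M library was above every F library by a wide margin. Cyp2j13, a cytochrome P450 of the epoxygenase family, had 339, 312 and 222 CPM in injured M tubules, against 0.488, 0.242 and 5.51 CPM in injured F tubules (log2 difference 7.13 ± 1.59, adjusted p = 0.010). Pzp, a plasma protease inhibitor of the alpha-2-macroglobulin family, had 179, 137 and 41.6 CPM in injured M tubules, against 0.733, 1.28 and 1.18 CPM in injured F tubules (log2 difference 6.81 ± 1.21, adjusted p = 0.0037). Gstp3, a glutathione S-transferase of the pi class, was steadier among M libraries, with 10.9, 9.3 and 6.1 CPM in injured M tubules, against 0.0814, 0.0661 and 0.0858 CPM in injured F tubules (log2 difference 6.76 ± 0.56, adjusted p = 6.9e-05). Ctxn3, which encodes a small membrane protein, cortexin 3, also ranked among the 12 (7.40, adjusted p = 0.0029). Slco1a1, Cyp2j13, Gstp3 and Cyp2b10 have close paralogs, so the split of reads among copies is uncertain.

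Among the 12 largest differences in favour of F, Ugt1a2, a UDP-glucuronosyltransferase that conjugates lipophilic compounds (GRCm38 chr1:88200601-88218997, plus strand), stood at the highest level: 3.63, 4.78 and 7.5 CPM in injured M tubules, against 1339, 1204 and 1611 CPM in injured F tubules (log2 difference -8.02 ± 0.65, adjusted p = 6.6e-05). The F libraries agreed within a narrow range. Ceacam2, a cell adhesion molecule, had 0, 0 and 0.154 CPM in injured M tubules, against 15.6, 24.2 and 17 CPM in injured F tubules (log2 difference -8.28 ± 0.99, adjusted p = 5.4e-04); without M replicate 3 its M group held no read and the fitted value was -12.61, which is no bound. Bhmt, which remethylates homocysteine with betaine, had 0.9, 1.71 and 2 CPM in injured M tubules, against 48.9, 37.9 and 55.3 CPM in injured F tubules (log2 difference -4.93 ± 0.29, adjusted p = 1.1e-05). Prlr, the prolactin receptor, had 1.08, 1.17 and 7.23 CPM in injured M tubules, against 70.9, 71.5 and 50.6 CPM in injured F tubules (log2 difference -4.33 ± 0.66, adjusted p = 0.0018). For Prlr, M replicate 3 was the highest M library and remained far below F.

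Of the 12 genes, 4 encode solute carriers. Slc22a13, which carries urate and nicotinate, had 0.72, 0.619 and 1.54 CPM in injured M tubules, against 30.7, 34.3 and 34.2 CPM in injured F tubules (log2 difference -5.09 ± 0.71, adjusted p = 0.0012). Slc22a29 (-4.66, adjusted p = 6.9e-04) and Slc22a27 (-4.57, adjusted p = 2.2e-04) belong to the same family of organic ion carriers. Slc7a12, an amino acid transporter, had 0.54, 0.309 and 1.11 CPM in injured M tubules, against 10.9, 54.4 and 24.1 CPM in injured F tubules (log2 difference -5.48 ± 0.95, adjusted p = 0.0033). Here the F libraries themselves spread over a wide range. Atp13a4, a P5-type ATPase, the aldo-keto reductase Akr1c20, the serpin Serpina1f and Mettl7a2 completed the list, with log2 differences of -4.82, -4.80, -6.11 and -4.24 (adjusted p = 0.0017, 1.5e-04, 0.0080 and 0.010). Ugt1a2 shares its 3' exons with the other Ugt1a transcripts, and Slc22a27, Slc22a29, Ceacam2, Akr1c20, Serpina1f and Mettl7a2 have close paralogs, so their counts are uncertain in the same way.

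Promoters of 4 of these genes are shown because the sex steroid receptors act through DNA: Slco1a1 and Pzp, higher in M, and Ugt1a2 and Ceacam2, higher in F. Each is 250 bases before to 50 after the start, from RefSeq on GRCm38.p6, 5′ to 3′ on the gene's strand, with matches to AGAACA, the hexamer that the androgen receptor binds, or its reverse complement TGTTCT in capitals.
Slco1a1, chr6:141946913-141947212, minus strand: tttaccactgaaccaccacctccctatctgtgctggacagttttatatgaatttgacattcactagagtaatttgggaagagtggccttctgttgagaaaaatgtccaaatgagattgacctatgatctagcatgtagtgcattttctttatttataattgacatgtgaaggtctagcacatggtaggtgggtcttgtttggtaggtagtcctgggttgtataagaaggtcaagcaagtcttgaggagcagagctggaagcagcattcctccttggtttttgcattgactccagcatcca
Pzp, chr6:128526671-128526970, minus strand: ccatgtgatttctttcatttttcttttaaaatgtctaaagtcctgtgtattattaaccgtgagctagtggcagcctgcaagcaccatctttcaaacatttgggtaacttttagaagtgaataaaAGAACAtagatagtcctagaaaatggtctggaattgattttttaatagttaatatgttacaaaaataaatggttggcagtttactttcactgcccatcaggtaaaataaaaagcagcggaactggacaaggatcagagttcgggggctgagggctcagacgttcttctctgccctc
Ugt1a2, chr1:88200361-88200660, plus strand: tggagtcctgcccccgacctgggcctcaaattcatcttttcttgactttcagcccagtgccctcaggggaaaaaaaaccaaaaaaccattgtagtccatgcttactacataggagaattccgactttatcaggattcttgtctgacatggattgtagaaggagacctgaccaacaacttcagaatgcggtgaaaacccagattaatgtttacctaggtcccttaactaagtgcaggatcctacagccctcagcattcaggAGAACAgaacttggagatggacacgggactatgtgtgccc
Ceacam2, chr7:25539955-25540254, minus strand: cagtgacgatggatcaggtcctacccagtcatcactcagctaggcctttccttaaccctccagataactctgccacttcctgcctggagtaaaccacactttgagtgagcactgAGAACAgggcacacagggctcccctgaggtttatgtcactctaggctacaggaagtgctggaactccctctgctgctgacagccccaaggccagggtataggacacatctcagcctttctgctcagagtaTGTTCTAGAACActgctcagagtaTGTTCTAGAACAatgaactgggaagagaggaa

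The Slco1a1 window held no match, Pzp and Ugt1a2 held 1 each, and Ceacam2 held 5, with 4 of them as 2 adjacent inverted pairs around its start. Over the genes with a RefSeq promoter, the hexamer was found in 1 of 9 with the largest difference in favour of M and in 3 of 10 in favour of F, against 19.0% of 31396 autosomal promoters. It was found in 3 of 15 promoters of called genes of the male-biased list. The STAT5 site TTCNNNGAA, a target of growth hormone and prolactin signalling, was found in 0 of 9 and 1 of 10, against 8.35% of autosomal promoters. The AP-1 site TGANTCA was found in 0 of 9 and 0 of 10, against 7.84%. Both strands were searched, and a match describes letters in this window only.

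Genes known as androgen-responsive or male-biased in the mouse kidney remained higher in M after injury. Of 21 tested, 18 were higher in M, 1 was higher in F (Serpina1f) and 2 did not pass, with a median log2 difference of 4.01, against a sham median of 4.49 for the same genes. The medians by library, relative to the F mean, were 4.39, 4.16 and 2.99 in M replicates 1, 2 and 3. The list was drawn from known sex bias, so its direction is no independent evidence, and without M replicate 3 its counts were 18 and 1.

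Cyp2e1, the ethanol-inducible cytochrome P450 (GRCm38 chr7:140763739-140774987, plus strand), had 1586, 1358 and 942 CPM in injured M tubules, against 64.9, 55.4 and 121 CPM in injured F tubules (log2 difference 4.01 ± 0.46, adjusted p = 4.1e-04). After sham it was also far higher in M, with 2059, 2046 and 2167 CPM in sham M tubules, against 164, 59.4 and 56 CPM in sham F tubules. Every injured M library lay below every sham M library. Cyp4a12a, an arachidonate omega-hydroxylase that yields the vasoconstrictor 20-HETE, had 261, 235 and 231 CPM in injured M tubules, against 8.97, 6.1 and 17.9 CPM in injured F tubules (log2 difference 4.46 ± 0.49, adjusted p = 3.6e-04); its copy Cyp4a12b makes the count uncertain. Slc22a30, an organic anion transporter with close paralogs, had 173, 171 and 53.9 CPM in injured M tubules, against 4.5, 5.77 and 11.4 CPM in injured F tubules (log2 difference 4.19 ± 0.52, adjusted p = 6.5e-04). Ugt2b38, from the list of conjugating enzymes, glucuronidates steroids and drugs and had 1963, 1942 and 1036 CPM in injured M tubules, against 165, 164 and 189 CPM in injured F tubules (log2 difference 3.25 ± 0.27, adjusted p = 6.9e-05), uncertain against its copy Ugt2b37. All 4 genes had M libraries clear of the F libraries. Odc1, ornithine decarboxylase, the first enzyme of polyamine synthesis and a classical androgen target in mouse kidney, differed less: 1075, 1121 and 1227 CPM in injured M tubules, against 555, 554 and 787 CPM in injured F tubules (log2 difference 0.85 ± 0.16, adjusted p = 0.0045). In sham tubules Odc1 stood at 3142, 2959 and 2528 CPM in sham M tubules, against 679, 623 and 720.0 CPM in sham F tubules, a difference of 2.09, and the difference after injury was smaller by the test of the difference itself (-1.24, adjusted p = 0.033).

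Traces of male-biased transcripts in F libraries were uneven. Over the 18 genes of the list higher in M, F replicate 3 was the highest injured F library for 12, with a median level of 7.19% of the M mean, against 3.63 and 4.72% in F replicates 1 and 2. In sham F tubules replicate 1 was the highest for 14, at 6.28% of the sham M mean, against 2.47 and 3.31% in the other two. Slco1a1 shows the pattern at its widest, with 1130.3, 1034 and 1029 CPM in sham M tubules, against 48.2, 0.0474 and 0.11 CPM in sham F tubules. The part these traces play in the differences was not tested.

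Of 15 female-biased genes tested, 8 were higher in F, 3 higher in M and 4 did not pass, with a median log2 difference of -3.41 after injury and -3.23 after sham. Kynu, kynureninase, which splits kynurenines in tryptophan breakdown, had 2.34, 1.9 and 10.7 CPM in injured M tubules, against 79.9, 73 and 94.2 CPM in injured F tubules (log2 difference -4.04 ± 0.57, adjusted p = 0.0013). The 3 genes that ran against the list were Cyp2a4 (2.08, adjusted p = 7.6e-04), Cyp2a5 and Slco1a6, each with close paralogs. Without M replicate 3, 10 members were higher in F and 3 in M. Among 24 hormone receptors and steroid enzymes, 3 were higher in M and 5 higher in F. Hsd3b4, a 3-beta-hydroxysteroid dehydrogenase with close paralogs, had 34.5, 30.4 and 42.5 CPM in injured M tubules, against 221, 245 and 191 CPM in injured F tubules (log2 difference -2.61 ± 0.17, adjusted p = 1.6e-05). Nr3c2, the mineralocorticoid receptor, (-1.70, adjusted p = 0.0018) was lower in M, and Hsd17b11 (1.73, adjusted p = 0.0028), a lipid-droplet steroid dehydrogenase, was higher.

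**Figure D3:**
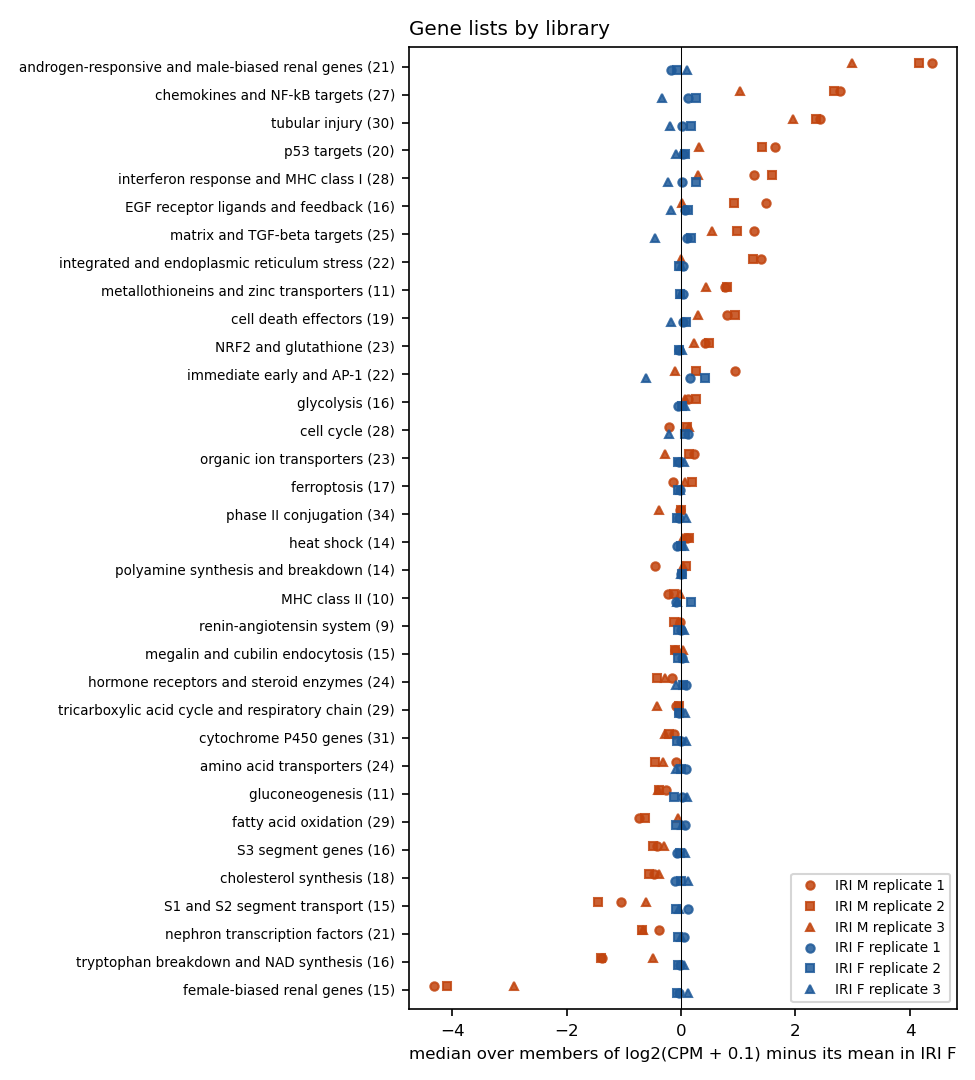
Median over the tested members (number in brackets) of log2(CPM + 0.1) minus its mean in injured F tubules, for 34 gene lists; orange points are the 3 injured M libraries and blue points the 3 injured F libraries. The male-biased list lies at 4.39, 4.16 and 2.99 and the tubular injury list at 2.44, 2.36 and 1.96 in M, while the p53 list lies at 1.64, 1.41 and 0.31 and the integrated stress list at 1.40, 1.27 and -0.01.

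Injury genes of the tubule that passed were higher in M. Of 30 tested, 16 were higher in M and 0 in F (14 not passed), with a median of 2.53 after injury and 0.45 after sham, and library medians of 2.44, 2.36 and 1.96. These counts were 18 and 1 without M replicate 3. Lcn2, which encodes the siderophore-binding protein NGAL (GRCm38 chr2:32384633-32388252, minus strand), had 507, 488 and 186 CPM in injured M tubules, against 2.58, 3.48 and 17.9 CPM in injured F tubules (log2 difference 5.62 ± 0.95, adjusted p = 0.0029). Havcr1, the phosphatidylserine receptor KIM-1 of injured proximal tubule, had 31.5, 277 and 304 CPM in injured M tubules, against 7.55, 26.1 and 7.44 CPM in injured F tubules (log2 difference 3.90 ± 0.76, adjusted p = 0.0057). The order among M libraries was not shared: replicate 3 was the highest for Havcr1 and the lowest for Lcn2. Plin2, the coat protein of lipid droplets, had 2472, 2341 and 384 CPM in injured M tubules, against 111, 102 and 88.4 CPM in injured F tubules (log2 difference 4.11 ± 0.54, adjusted p = 8.9e-04). Vcam1, an adhesion molecule of tubule cells that stay injured, was even across M libraries, with 34.1, 25.9 and 33.8 CPM in injured M tubules, against 5.62, 6.54 and 1.5 CPM in injured F tubules (log2 difference 2.78 ± 0.44, adjusted p = 0.0020). S100a11 was higher too (2.16, adjusted p = 0.0019). Spp1, osteopontin (GRCm38 chr5:104435118-104441050, plus strand), was high in both sexes: 2278, 2762 and 3639 CPM in injured M tubules, against 1817, 1878 and 1776 CPM in injured F tubules (log2 difference 0.67 ± 0.21, adjusted p = 0.045). The groups did not overlap in CPM, but did in TPM (962, 1080 and 1940 TPM in M, against 982, 908 and 851 TPM in F). The Spp1 call was lost when any of 8 of the 12 libraries was left out, M replicates 2 and 3 among them.

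Targets of p53, the DNA damage and growth arrest factor, that passed were higher in M too. Of 20 tested, 9 were higher in M and 0 in F (11 not passed; median 1.19), and 13 and 0 without M replicate 3. Cdkn1a, the cell cycle inhibitor p21, had 659.8, 589 and 23.4 CPM in injured M tubules, against 8.4, 12 and 5.25 CPM in injured F tubules (log2 difference 5.63 ± 1.02, adjusted p = 0.0042). Trp53inp1, which promotes autophagy and cell death, had 617, 383 and 22.7 CPM in injured M tubules, against 22.6, 23.9 and 17.9 CPM in injured F tubules (log2 difference 3.99 ± 0.80, adjusted p = 0.0065). In M replicate 3, Trp53inp1 lay within the F range, and Cdkn1a lay above it but far below the other M libraries. Aen, a nuclease of apoptosis, was even among M libraries, with 55.1, 61.3 and 45 CPM in injured M tubules, against 21.9, 20.1 and 27.3 CPM in injured F tubules (log2 difference 1.22 ± 0.19, adjusted p = 0.0021), and Perp, a desmosomal p53 target, was higher in M (0.99, adjusted p = 0.011).

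Chemokines and NF-kB targets were among the lists with the highest share of calls. Of 27 tested, 19 were higher in M and 0 in F, a share of 70.4% against the background of 23.2%, with a median of 2.57 (also 2.57 with Ccl20, at 0 reads in F, set to its bound) and a sham median of 1.44. Il34, a ligand of the CSF1 receptor, had 270.2, 248 and 89.1 CPM in injured M tubules, against 7.3, 8.26 and 6.3 CPM in injured F tubules (log2 difference 4.80 ± 0.43, adjusted p = 1.0e-04), and differed already in sham tubules (3.93, adjusted p = 2.5e-04). Tnfrsf12a, the receptor of TWEAK, had 564, 630.2 and 141 CPM in injured M tubules, against 23.5, 22.5 and 19 CPM in injured F tubules (log2 difference 4.36 ± 0.54, adjusted p = 6.4e-04). Both genes kept the groups apart in every library. Icam1, which binds leukocyte integrins, had 205, 177 and 68.7 CPM in injured M tubules, against 19.5, 17.9 and 12.2 CPM in injured F tubules (log2 difference 3.18 ± 0.50, adjusted p = 0.0020), and the NF-kB subunit gene Nfkb2 was higher by 1.51 (adjusted p = 0.0019). Il6 and Lif, cytokines that signal through STAT3, were called higher in M at log2 differences of 5.72 and 6.28, and the chemokine gene Ccl20 was called with no read in F. With M replicate 3 left out, 22 of 27 were higher in M.

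Immediate early and AP-1 genes were mixed: 6 of 22 were higher in M and 1 in F (Dusp1, a MAP kinase phosphatase). Besides Fosl1, Myc had 148, 128 and 50.6 CPM in injured M tubules, against 9.05, 11.2 and 7.78 CPM in injured F tubules (log2 difference 3.54 ± 0.73, adjusted p = 0.0075), and Fosl2 (2.86, adjusted p = 0.0070) and Ier5 (1.90, adjusted p = 0.027) were higher; the call of Ier5 was lost when any injured library but M replicate 3 was left out. Of 22 genes of integrated and endoplasmic reticulum stress, 8 were higher in M and 2 in F. Atf4, the transcription factor of the integrated stress response, had 424, 397 and 93.4 CPM in injured M tubules, against 69.6, 72.3 and 75.3 CPM in injured F tubules (log2 difference 2.07 ± 0.45, adjusted p = 0.0095). Chac1, its target that degrades glutathione, had 31.5, 23.7 and 0.806 CPM in injured M tubules, against 0.692, 1.19 and 0.729 CPM in injured F tubules (log2 difference 4.42 ± 0.98, adjusted p = 0.010). In M replicate 3, Chac1 lay within the F range. Asns (3.10, adjusted p = 0.0049), for asparagine synthesis, and Xbp1 (1.497, adjusted p = 0.0090), of the unfolded protein response, were higher as well, whereas Sdf2l1 and Vldlr were lower in M. The counts without M replicate 3 were 8 and 1 for the immediate early list, and 13 and 5 for the stress list. Heat shock genes had 5 of 14 higher in M and 0 in F. Hsp90aa1 had 935, 948 and 591 CPM in injured M tubules, against 375, 391 and 398 CPM in injured F tubules (log2 difference 1.09 ± 0.20, adjusted p = 0.0045). These were 5 and 3 with M replicate 3 left out.

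Of 16 ligands, receptors and feedback genes of the EGF receptor family, 8 were higher in M and 4 in F. Ligands and receptors went both ways, while the feedback genes that passed were higher in M. Areg, amphiregulin, had 8.28, 9.42 and 0.844 CPM in injured M tubules, against 0.122, 0.11 and 0 CPM in injured F tubules (log2 difference 6.26 ± 1.14, adjusted p = 0.0061), and Dusp4 (1.85, adjusted p = 0.0037), a feedback phosphatase, was higher, as were Hbegf, Egfr, Erbb3 and Dusp5. Erbb4 had 7.69, 6.83 and 10.7 CPM in injured M tubules, against 25.7, 29.6 and 23.4 CPM in injured F tubules (log2 difference -1.64 ± 0.23, adjusted p = 0.0013). In TPM, however, Erbb4 stood at 0.283, 1.28 and 0.672 in injured M, against 1.31, 1.42 and 1.06 in injured F, so the groups overlapped. In the authors' deposited table of this comparison, made with DESeq2, Erbb4 did not pass (-0.21, adjusted p = 0.657). Erbb2 was lower in M (-1.21, adjusted p = 0.0017), as were the ligands Egf (-1.69, adjusted p = 0.025), a product of the distal nephron, and Btc. The call of Egf was lost without F replicate 1, F replicate 2 or M replicate 2. Leaving out M replicate 3 gave 11 higher in M and 4 in F. Among 28 cell cycle genes (10.7% called, against 23.2% over all), 3 replication genes were higher in M, Mcm7 (0.92, adjusted p = 0.0039), Mcm4 (0.87, adjusted p = 0.0092) and Pcna (0.55, adjusted p = 0.033), and 25 did not pass; the call of Pcna was lost when sham M replicate 1 or 2 or any injured library other than M replicate 3 was left out, and the counts without M replicate 3 were 4 and 4.

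Among genes of reabsorption, those that passed were mostly lower in M. In the megalin and cubilin system, which takes up filtered proteins, 4 of 15 genes were lower in M and 2 higher. Lrp2, megalin (GRCm38 chr2:69424340-69586065, minus strand), had 913, 681 and 1225 CPM in injured M tubules, against 2211, 1935 and 2791 CPM in injured F tubules (log2 difference -1.30 ± 0.22, adjusted p = 0.0029). Cubn, cubilin, had 285, 207 and 334 CPM in injured M tubules, against 696, 576 and 725 CPM in injured F tubules (log2 difference -1.27 ± 0.20, adjusted p = 0.0020). In sham tubules neither passed the test (0.31, adjusted p = 0.502, and -0.07, adjusted p = 0.907). Lrpap1, the chaperone of megalin, was lower in M (-0.63, adjusted p = 0.0037), and the lysosomal protease Ctsl was higher: 3013, 2202 and 658 CPM in injured M tubules, against 305, 303 and 268 CPM in injured F tubules (log2 difference 2.74 ± 0.40, adjusted p = 0.0015). Leaving out M replicate 3 gave 6 lower and 2 higher.

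Transport genes of segments S1 and S2, the first parts of the proximal tubule, had 6 of 15 lower in M and 1 higher (median -0.56), and 8 and 0 without M replicate 3. Slc34a3, a sodium-phosphate cotransporter, had 34.5, 19.4 and 19.8 CPM in injured M tubules, against 87.8, 86.3 and 68.9 CPM in injured F tubules (log2 difference -1.72 ± 0.34, adjusted p = 0.0062). Slc22a8 (-1.43, adjusted p = 0.0071), an organic anion carrier, Slc7a7 (-1.21, adjusted p = 0.013) and Slc7a8 (-1.40, adjusted p = 0.014), basolateral amino acid exchangers, were also lower. These 4 were lower in sham M tubules too, at -2.06, -1.36, -1.32 and -1.95, each called. The calls after injury were lost for Slc7a7 without F replicate 1 or M replicate 1, for Slc7a8 without M replicate 2, and for Slc22a6 without F replicate 1 or 2, M replicate 1 or 3, sham M replicate 1 or 2 or sham F replicate 1. Slc22a6, the organic anion carrier OAT1, was the member higher in M: 1008, 794 and 1162 CPM in injured M tubules, against 659, 554 and 771 CPM in injured F tubules (log2 difference 0.58 ± 0.18, adjusted p = 0.036). Slc34a1, the main phosphate cotransporter, did not pass, at 3942, 2923 and 1754 CPM in injured M tubules, against 4292, 3815 and 4618 CPM in injured F tubules (log2 difference -0.56 ± 0.24, adjusted p = 0.115). M replicate 3 was below the other M libraries for Slc34a1 and above them for Lrp2.

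In the last segment, S3, 3 of 16 genes were higher in M and 4 lower. Atp11a, a phospholipid flippase, had 957, 706 and 875 CPM in injured M tubules, against 149, 203 and 181 CPM in injured F tubules (log2 difference 2.25 ± 0.23, adjusted p = 2.1e-04). Slc7a13, which carries aspartate and cystine in S3, had 318, 287 and 93.6 CPM in injured M tubules, against 8.26, 11.8 and 16.3 CPM in injured F tubules (log2 difference 4.26 ± 0.56, adjusted p = 8.8e-04). Both are steeply male-biased in sham tubules (3.28 and 5.05). Slc3a1, a heavy chain of cystine transport, was lower in M (-0.58, adjusted p = 0.0045). Among 23 organic ion transporters 6 were higher in M and 6 lower. Slco3a1 had 223, 199 and 186 CPM in injured M tubules, against 47.9, 50.1 and 45.7 CPM in injured F tubules (log2 difference 2.08 ± 0.13, adjusted p = 1.3e-05). Slc22a28, which has close paralogs, was higher (2.61, adjusted p = 8.2e-04). Of 24 amino acid transporters 5 were higher and 8 lower: Slc6a20b, an imino acid carrier with a close paralog, had 127, 109 and 153 CPM in injured M tubules, against 301, 287 and 309 CPM in injured F tubules (log2 difference -1.20 ± 0.15, adjusted p = 6.2e-04), Slc7a9 was lower (-1.18, adjusted p = 0.0032), and the members that were higher, Slc7a11, Slc38a2, Slc7a1, Slc1a4 and Slc7a13, include the cystine carrier that feeds glutathione synthesis. With M replicate 3 left out, S3 genes had 4 higher and 7 lower, organic ion transporters 9 and 7, and amino acid transporters 5 and 10.

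Cytochrome P450 genes went in both directions: 9 of 31 were higher in M and 7 lower, and 9 and 12 without M replicate 3. Cyp2d26 had 25.4, 13.8 and 29.1 CPM in injured M tubules, against 179, 162 and 189 CPM in injured F tubules (log2 difference -2.96 ± 0.33, adjusted p = 3.9e-04). Cyp2d22 was lower (-1.28, adjusted p = 7.3e-04); Cyp2d genes are close copies. Of 34 conjugating enzymes 7 were higher and 10 lower (10 and 12 without M replicate 3). Ugt1a9, which shares exons with Ugt1a2, had 138, 129 and 148 CPM in injured M tubules, against 61, 60.7 and 73.9 CPM in injured F tubules (log2 difference 1.08 ± 0.14, adjusted p = 6.5e-04), opposite in direction to Ugt1a2. Gsta2, a glutathione S-transferase of the alpha class with close copies, had 111, 158 and 123 CPM in injured M tubules, against 231, 219.7 and 323 CPM in injured F tubules (log2 difference -0.98 ± 0.22, adjusted p = 0.010).

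Metabolic genes of the mitochondrion did not pass for the most part, and those that passed were mainly lower in M. In fatty acid oxidation 8 of 29 genes were lower and 2 higher, with 19 not passed and a median of -0.34. Acaa2, the last thiolase of beta-oxidation, had 59.6, 54.2 and 89.2 CPM in injured M tubules, against 238, 207 and 234 CPM in injured F tubules (log2 difference -1.74 ± 0.24, adjusted p = 0.0011). Hadhb, of the trifunctional protein, had 221, 243 and 246 CPM in injured M tubules, against 373, 350.3 and 385 CPM in injured F tubules (log2 difference -0.64 ± 0.11, adjusted p = 0.0025). Etfb, which passes electrons from acyl-CoA dehydrogenases, was lower (-0.90, adjusted p = 0.0043). The share called was 34.5%, against 23.2% over all genes. Without M replicate 3, 18 of 29 were lower and 2 higher (69.0% called, against 44.2% over all genes). Acox2, a peroxisomal oxidase for branched fatty acids and bile acid precursors, was lower in M after injury (-0.70, adjusted p = 0.0076) and higher in M after sham (0.72, adjusted p = 0.014). Of 29 respiratory chain and tricarboxylic acid cycle genes, 7 were lower and 1 higher, led by Idh2, with 210.4, 208 and 230.2 CPM in injured M tubules, against 399, 387 and 398 CPM in injured F tubules (log2 difference -0.87 ± 0.10, adjusted p = 4.8e-04), and Ndufs1 (-0.71, adjusted p = 0.0052); without M replicate 3, 9 were lower and 2 higher. Their share called, 27.6%, was near the 23.2% over all genes, and without M replicate 3 it was 37.9%, under the 44.2% over all.

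Sugar metabolism went both ways. G6pc, the glucose-releasing phosphatase of gluconeogenesis, had 223, 123 and 217 CPM in injured M tubules, against 752, 654 and 863 CPM in injured F tubules (log2 difference -2.01 ± 0.26, adjusted p = 8.2e-04). Gluconeogenesis as a list had 3 of 11 lower in M and 1 higher, Glud1, glutamate dehydrogenase (0.60, adjusted p = 0.0091) (5 and 1 without M replicate 3). In glycolysis 3 of 16 genes were higher and 2 lower. The platelet-type phosphofructokinase Pfkp had 158, 173 and 61.8 CPM in injured M tubules, against 44, 52.4 and 46.8 CPM in injured F tubules (log2 difference 1.45 ± 0.35, adjusted p = 0.014), and the muscle type Pfkm had 15.7, 13 and 34.5 CPM in injured M tubules, against 66.4, 66.1 and 72 CPM in injured F tubules (log2 difference -1.69 ± 0.29, adjusted p = 0.0033). Hk2, the inducible hexokinase, had 9.36, 8.47 and 1.13 CPM in injured M tubules, against 0.407, 0.33 and 0.236 CPM in injured F tubules (log2 difference 4.27 ± 1.09, adjusted p = 0.018). The calls of Pfkp and Hk2 were lost when F replicate 1 or 3 or M replicate 1 or 2 was left out, that of Hk2 also without F replicate 2, and without M replicate 3 glycolysis had 7 higher and 5 lower.

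Tryptophan breakdown and NAD synthesis had 8 of 16 genes lower in M and 1 higher, with a median of -0.77, and 12 lower and 1 higher without M replicate 3. Acmsd, which diverts the pathway away from NAD, had 54.6, 48.8 and 80.5 CPM in injured M tubules, against 280.2, 262 and 284 CPM in injured F tubules (log2 difference -2.17 ± 0.19, adjusted p = 9.5e-05). Kmo, kynurenine monooxygenase, had 47.5, 41.5 and 74 CPM in injured M tubules, against 167, 148 and 169 CPM in injured F tubules (log2 difference -1.57 ± 0.19, adjusted p = 6.3e-04). Ido2, which opens the indole ring, had 1.49, 0.666 and 1.94 CPM in injured M tubules, against 6.51, 7.47 and 6.18 CPM in injured F tubules (log2 difference -2.29 ± 0.36, adjusted p = 0.0021). Kyat1, which makes kynurenic acid, was the member higher in M (1.57, adjusted p = 7.6e-04). Acmsd and Ido2 differed more from F after injury than after sham (-1.54, adjusted p = 0.027, and -2.59, adjusted p = 0.038). In polyamine metabolism, 2 of 14 genes were higher in M and 3 lower. Smox, spermine oxidase, had 49.9, 47.2 and 9.98 CPM in injured M tubules, against 4.05, 3.66 and 3.43 CPM in injured F tubules (log2 difference 3.26 ± 0.50, adjusted p = 0.0018). Gatm, which makes the creatine precursor guanidinoacetate, had 45.3, 55.1 and 393 CPM in injured M tubules, against 1405, 1347 and 1475 CPM in injured F tubules (log2 difference -3.10 ± 0.69, adjusted p = 0.010), and its difference was -4.81 without M replicate 3. Polyamine counts without that library were 3 higher and 3 lower. Cholesterol synthesis had 3 of 18 lower, Mvk (-1.54, adjusted p = 0.0076) and Lss (-1.05, adjusted p = 0.030) among them, and 0 higher, a share of 16.7% that is under the 23.2% over all genes (9 and 1 without M replicate 3, where Lss stood at -1.59). The call of Lss was lost when sham F replicate 2 or any injured library other than M replicate 3 was left out.

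Inducible genes of oxidant defence were among those higher in M. Of 23 genes of the NRF2 and glutathione list, 10 were higher and 3 lower (12 and 3 without M replicate 3). Hmox1, heme oxygenase 1, had 259, 213 and 77.5 CPM in injured M tubules, against 20.7, 21.6 and 14.9 CPM in injured F tubules (log2 difference 3.27 ± 0.39, adjusted p = 5.4e-04). Srxn1, which repairs peroxiredoxins, had 145, 254 and 151 CPM in injured M tubules, against 71.4, 63 and 75 CPM in injured F tubules (log2 difference 1.39 ± 0.20, adjusted p = 0.0013). Txnrd1, thioredoxin reductase 1, had 421, 475 and 245 CPM in injured M tubules, against 148, 132 and 161 CPM in injured F tubules (log2 difference 1.37 ± 0.20, adjusted p = 0.0016). The groups did not overlap for these 3. The lower members, Cat, Sod2 and Gpx3, are enzymes of steady-state peroxide and superoxide removal. Of 17 ferroptosis genes 6 were higher and 5 lower. Gch1, which starts the synthesis of the antioxidant tetrahydrobiopterin, had 29.6, 32.4 and 3.97 CPM in injured M tubules, against 1.26, 1.39 and 1.09 CPM in injured F tubules (log2 difference 4.13 ± 0.64, adjusted p = 0.0018), Slc39a14, which imports iron and zinc, was higher (2.64, adjusted p = 9.9e-04). Ncoa4, the receptor that sends ferritin to autophagy, had 119, 103 and 156 CPM in injured M tubules, against 299.9, 272 and 279.7 CPM in injured F tubules (log2 difference -1.17 ± 0.15, adjusted p = 8.9e-04). Metallothioneins and zinc transporters had 6 of 11 higher, Mt1 and Mt2 among them, and 2 lower. Slc30a2, a zinc exporter, had 451, 335 and 136 CPM in injured M tubules, against 54.1, 43.7 and 55.6 CPM in injured F tubules (log2 difference 2.59 ± 0.35, adjusted p = 9.9e-04). Slc39a5, a zinc importer, had 17.8, 10.7 and 29.4 CPM in injured M tubules, against 105, 104 and 108 CPM in injured F tubules (log2 difference -2.45 ± 0.32, adjusted p = 8.8e-04). Without M replicate 3, ferroptosis had 6 and 7, and the metallothionein and zinc list 7 and 3.

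Among 19 cell death effectors 5 were higher in M and 2 lower (7 and 2 without M replicate 3). Mlkl, the pore-forming protein of necroptosis, had 9.18, 11.7 and 2.78 CPM in injured M tubules, against 0.549, 0.837 and 0.3 CPM in injured F tubules (log2 difference 3.80 ± 0.58, adjusted p = 0.0017). Tnfrsf1a, the TNF receptor 1, had 97.5, 96 and 69.5 CPM in injured M tubules, against 36.9, 38.2 and 33.1 CPM in injured F tubules (log2 difference 1.28 ± 0.19, adjusted p = 0.0014), and Casp8 (1.19, adjusted p = 0.0029) and Bak1 (1.20, adjusted p = 0.0053), of apoptosis, were higher. The difference exceeded that in sham tubules for Mlkl (4.00, adjusted p = 0.040) and Tnfrsf1a (1.48, adjusted p = 0.033).

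Interferon response and MHC class I genes had 8 of 28 higher in M and 0 lower, a share of 28.6% that is near the 23.2% over all genes. Without M replicate 3 they had 17 higher and 1 lower, 64.3% against 44.2% over all. The list's median log2 difference was 1.10 after injury and 1.19 after sham, where 5 of 28 were called higher in M and 0 lower. H2-K1 had 919, 792 and 214 CPM in injured M tubules, against 134, 135 and 114 CPM in injured F tubules (log2 difference 2.33 ± 0.40, adjusted p = 0.0031). Irgm1, an interferon-induced GTPase, had 283, 249.9 and 41.4 CPM in injured M tubules, against 40.6, 40.7 and 33 CPM in injured F tubules (log2 difference 2.33 ± 0.53, adjusted p = 0.011); the MHC genes of the mouse are highly similar, so their split is uncertain. Of 10 MHC class II genes, Cd74 (1.54, adjusted p = 0.029) and H2-Ab1 (1.70, adjusted p = 0.012) were higher in M (20.0% called). In sham tubules Cd74 had 392, 191 and 282 CPM in sham M tubules, against 22.7, 46.3 and 27.5 CPM in sham F tubules. The call of Irgm1 was lost without F replicate 3, and those of Cd74 and H2-Ab1 when F replicate 1 or M replicate 1 was left out, that of Cd74 also without F replicate 2 or 3 or M replicate 2, and without M replicate 3 the list had 3 higher in M and 0 lower. Matrix and TGF-beta genes had 10 of 25 higher and 1 lower (15 and 2 without M replicate 3). Col4a1, a basement membrane collagen, had 627, 428 and 327 CPM in injured M tubules, against 179.7, 183 and 141 CPM in injured F tubules (log2 difference 1.46 ± 0.21, adjusted p = 0.0014), and Timp3 (0.77, adjusted p = 0.0023) and Tgfbr1 (1.18, adjusted p = 0.0043) were higher.

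Leukocyte markers were mixed. Of 12 tested macrophage markers 2 were called (16.7%, under the 23.2% over all genes) and the list's median log2 difference was -0.02. The 2 were Cd14, which is not specific to macrophages, with 236, 179 and 104 CPM in injured M tubules, against 12.7, 18.1 and 9.41 CPM in injured F tubules (log2 difference 3.69 ± 0.60, adjusted p = 0.0023), and Cd68 (2.48, adjusted p = 0.048); the list summed to 90.1, 69.1 and 61.1 TPM in M, against 19.6, 29.7 and 15.4 TPM in F. Cd14 carried that difference: without it the sums were 17.0, 18.2 and 17.1 TPM in M, against 14.2, 22.4 and 11.9 TPM in F, and overlapped. Csf1r, C1qa, C1qb, C1qc and Lyz2 had log2 differences of -0.07, -0.35, -0.88, -0.34 and -0.97, and none passed. The defining marker Adgre1 (F4/80) had 0.0771, 0.19 and 0.537 CPM in injured M tubules, against 0.936, 1.1 and 0.793 CPM in injured F tubules and did not pass (adjusted p = 0.090). Of 8 tested neutrophil markers 4 were higher, Lcn2, S100a9 (3.40, adjusted p = 0.047), Csf3r (2.09, adjusted p = 0.018) and Cxcr2 (1.57, adjusted p = 0.039); tubule cells make Lcn2 too, and without it the list summed to 54.5, 31.7 and 9.55 TPM in M, against 6.83, 5.27 and 2.69 TPM in F. Camp was under 1 CPM in each of the 6 libraries, as were 10 of 12 T and B cell markers, and 0 of the 6 of these tested passed. The mast cell markers Fcer1a and Mcpt4 were at 0 reads in all 6, while Tpsab1 had 7.33, 7.52 and 5.08 CPM in injured M tubules, against 0.183, 0.198 and 0.3 CPM in injured F tubules (log2 difference 4.85 ± 0.47, adjusted p = 9.9e-04). The calls of Cd68, S100a9, Csf3r and Cxcr2 were each lost when any injured library other than M replicate 3 was left out, and those of Cd68, S100a9 and Cxcr2 also without some of the sham libraries. Csf3r stood at 0.181, 0.124 and 0.17 TPM in injured M, against 0.0941, 0.0944 and 0.112 TPM in injured F. In the authors' deposited table, made with DESeq2, Csf3r did not pass (0.46, adjusted p = 0.326), while Cd68, S100a9 and Cxcr2 did. The part of leukocytes in the chemokine, interferon and MHC differences was not tested. Podocyte markers (0 of 9 called) and mural markers (0 of 12) did not pass, and 1 of 13 endothelial markers, Tek (-1.48, adjusted p = 0.034), was lower in M, a call lost without F replicate 1 or 2, M replicate 1 or 2 or sham F replicate 2.

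Distal nephron markers that passed were lower in M, with 1 exception. Of 11 thick ascending limb markers 7 were lower and 0 higher, of 9 distal convoluted tubule markers 5 were lower and 0 higher, and of 11 intercalated cell markers 5 were lower and 0 higher. Kcnj1, the apical potassium channel ROMK, had 24.1, 22.3 and 59.1 CPM in injured M tubules, against 266, 249 and 241 CPM in injured F tubules (log2 difference -2.84 ± 0.34, adjusted p = 5.6e-04). Casr, the calcium-sensing receptor, had 12.5, 11.8 and 13.7 CPM in injured M tubules, against 54.8, 56.3 and 59.5 CPM in injured F tubules (log2 difference -2.16 ± 0.19, adjusted p = 9.2e-05). Umod, uromodulin, did not pass, with 4212, 4112 and 1635 CPM in injured M tubules, against 4079.5, 5106 and 3778 CPM in injured F tubules (log2 difference -0.38 ± 0.41, adjusted p = 0.532). Rhcg, an ammonia channel of intercalated cells, was lower in M (-2.00, adjusted p = 0.0090). Among 12 principal cell markers, of which 25.0% were called, near the 23.2% over all genes, 2 were lower, Aqp3 (-1.21, adjusted p = 0.017) and Hsd11b2 (-2.05, adjusted p = 0.041), and 1 higher, the exception Tfcp2l1 (0.98, adjusted p = 0.047); Aqp2 had 142, 164 and 108 CPM in injured M tubules, against 465, 400.1 and 271 CPM in injured F tubules and did not pass. These 3 calls were lost when F replicate 1 or 2 or M replicate 1 or 2 was left out, and those of Hsd11b2 and Tfcp2l1 also without F replicate 3 or some of the sham libraries. Of 21 nephron transcription factors 8 were lower, among them the distal factors Pou3f3 (-2.03, adjusted p = 0.0012), Tfap2b (-2.04, adjusted p = 0.0028) and Emx1 (-1.68, adjusted p = 0.0046), with Mecom at 18.7, 20.4 and 19.4 CPM in injured M tubules, against 51.5, 51.7 and 45.4 CPM in injured F tubules (log2 difference -1.34 ± 0.18, adjusted p = 9.4e-04). Pax8 and Tfcp2l1 were higher. With the distal marker score as a covariate, the call was lost for Pou3f3, Tfap2b and Mecom, among others, and Aqp3 and Hsd11b2 turned to 0.08 and 0.30. Aqp3 and Hsd11b2 are themselves members of the lists that make up the score. So are the transcription factors Emx1 and Tfcp2l1, which are thus counted among the distal markers above as well. The score was 0.92 to 0.99 in injured F libraries, against -0.64 to -0.08 in injured M and -0.76 to 0.37 in sham libraries. It thus nearly marks the injured F group, and this fit cannot separate the score from that group. Under that covariate 9.69% of all autosomal genes were called, 5.95% higher in M and 3.74% higher in F. Against that the male-biased list had 13 of 21 higher in M, tubular injury 10 of 30, chemokines 12 of 27 and p53 targets 7 of 20. Further lists were above that share too, among them the metallothionein and zinc list (54.5%), amino acid transporters (41.7%) and female-biased genes (40.0%). Some lists were near or under it. Fatty acid oxidation had 1 of 29 higher in M and 3 lower (13.8%), and respiratory genes 0 and 2 of 29 (6.9%). Cell cycle genes had 2 and 0 of 28 (7.14%), and cholesterol synthesis had 0 of 18 called.

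In the renin-angiotensin system 1 of 9 genes was higher in M and 2 lower. Ace, angiotensin-converting enzyme, had 229, 181 and 69.7 CPM in injured M tubules, against 32.9, 49.1 and 50.02 CPM in injured F tubules (log2 difference 1.86 ± 0.40, adjusted p = 0.0092), as in sham tubules (1.76, adjusted p = 0.025). Mme, neprilysin, which degrades angiotensins and natriuretic peptides, had 46, 45.8 and 35.5 CPM in injured M tubules, against 153, 162 and 165 CPM in injured F tubules (log2 difference -1.91 ± 0.39, adjusted p = 0.0071), and Enpep, aminopeptidase A, was lower (-0.67, adjusted p = 0.031), a call lost when sham F replicate 2 or any injured library other than M replicate 3 was left out. Without M replicate 3, 1 was higher and 4 lower.

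The sex difference after sham surgery was narrower in number: 1006 autosomal genes were called (5.67%), 575 higher in M and 431 higher in F. Of these, 599 were also called after injury (59.5% of the sham calls and 14.5% of the injured calls), 588 in the same direction, and 3523 genes were called after injury but not after sham. The sham and injured comparisons share no library; across genes, which are not independent replicates and come from 1 fit, their log2 differences had a Pearson's r of 0.357 and a Spearman's rho of 0.338. Of the 12 largest differences in each direction after injury, 6 of those in favour of M and 8 of those in favour of F were called in the same direction after sham. Bhmt is an example of a steady difference, with -4.93 after injury and -4.83 after sham, and Krt20 of one seen after injury, with 9.01 and -0.84, although the difference between the Krt20 values did not pass (adjusted p = 0.103).

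**Figure D4:**
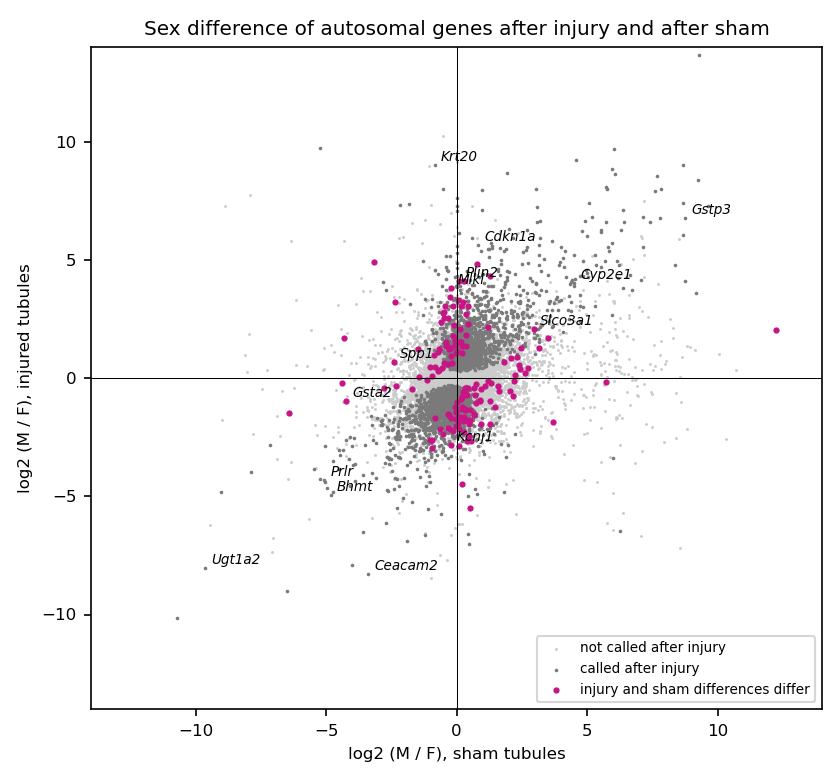
Log2 difference (M over F) of 17743 autosomal genes in injured tubules against that in sham tubules; dark grey marks the 4122 genes called after injury and magenta the 153 whose 2 differences differ by test. Cyp2e1, Bhmt and Ugt1a2 lie far out in both, while Krt20, Plin2 and Mlkl lie near 0 on the sham axis.

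The test of the injured difference minus the sham difference was passed by 153 genes (0.862%), 68 positive and 85 negative; 3540 had an unadjusted p under 0.05. Of the 153, 122 were called after injury and 55 after sham, and 11 were called in all 3 tests with opposite directions. Spp1 is one of the genes whose sham and injured differences run against each other: it had 311, 177 and 218 CPM in sham M tubules, against 1284, 1364 and 1095 CPM in sham F tubules, a sham difference of -2.41 (adjusted p = 1.2e-04), and a difference of differences of 3.08 (adjusted p = 0.0033). Mvp, the major vault protein, had 197, 195 and 149.6 CPM in injured M tubules, against 50.7, 58.4 and 52.4 CPM in injured F tubules, and 46.7, 49.8 and 44.5 CPM in sham M tubules, against 52.2, 52.8 and 45.3 CPM in sham F tubules (difference of differences 1.84, adjusted p = 0.0033). Tgm2, transglutaminase 2, followed Mvp: 662, 590.2 and 576 CPM in injured M tubules, against 268, 249 and 269 CPM in injured F tubules, with a difference of differences of 1.49 (adjusted p = 0.0034). The actin-binding Tagln2 did as well (1.67, adjusted p = 0.0033). In these 3 genes the sham groups overlapped or lay close, and the injured M libraries stood above the rest.

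Other genes had a smaller or an opposite difference after injury, while Casr had one that was called after injury alone. Dap, a regulator of autophagy, had 87, 86.7 and 102 CPM in injured M tubules, against 89, 85.7 and 91.9 CPM in injured F tubules, whereas sham tubules had 30.4, 26.5 and 28.1 CPM in M, against 74.7, 82 and 74.3 CPM in F (difference of differences 1.49, adjusted p = 0.0033). Agps, a peroxisomal enzyme of ether lipid synthesis, had 149.6, 147 and 154 CPM in injured M tubules, against 59.6, 68.1 and 61.2 CPM in injured F tubules, and 615, 534 and 615 CPM in sham M tubules, against 81.6, 52.5 and 63.9 CPM in sham F tubules (difference of differences -1.90, adjusted p = 0.0034). Frzb, a secreted WNT antagonist, and Degs2, a sphingolipid desaturase and hydroxylase, were also less male-biased after injury than after sham (-2.30 and -1.83, adjusted p = 0.0034 and 0.0033). Mturn and the phosphatase Inpp5j were higher in sham M (0.50 and 0.68, both called) and lower in injured M (-1.37, adjusted p = 1.5e-04) and (-1.50, adjusted p = 4.1e-04). Casr passed the test after injury and not after sham, where it had 25.1, 15.6 and 16.2 CPM in sham M tubules, against 16.2, 18.5 and 18.7 CPM in sham F tubules (difference of differences -2.26, adjusted p = 0.0034). With the distal marker score as a covariate 0 genes passed the test of the difference, 3715 having an unadjusted p under 0.05.

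**Figure D5:**
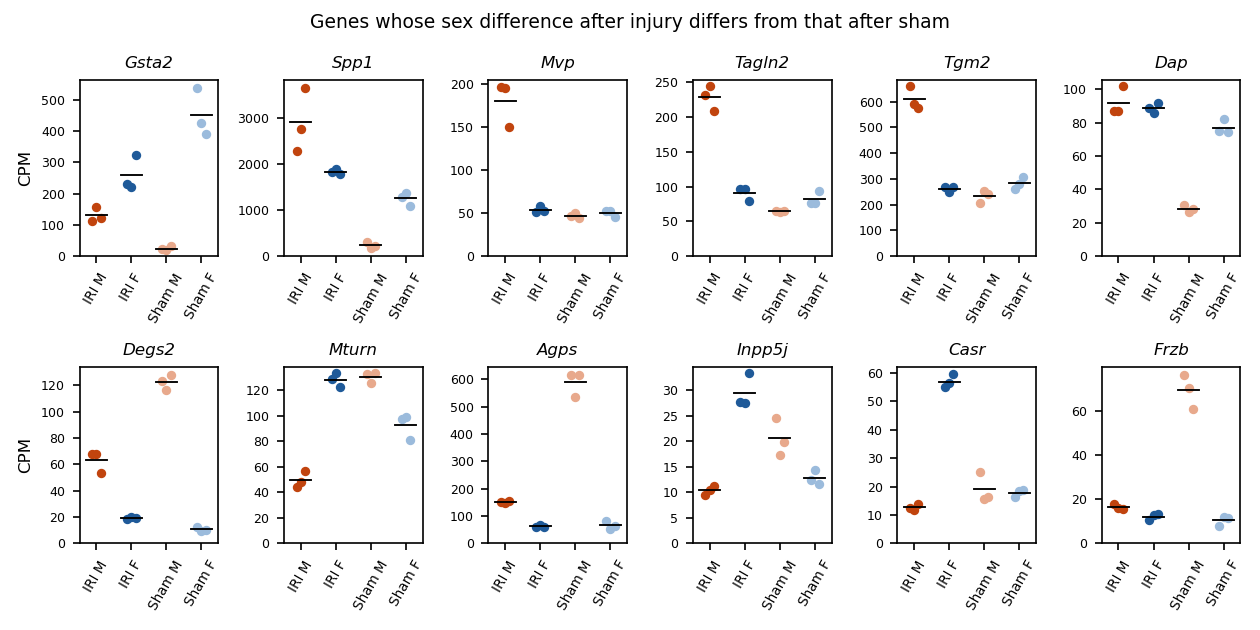
CPM of the 12 genes with the smallest p in the test of the injured difference minus the sham difference; points are libraries and lines are means of 3, in the order IRI M, IRI F, Sham M, Sham F. The upper row holds the 6 positive values, from 1.49 to 3.24 on the log2 scale, and the lower row the 6 negative ones, from -2.30 to -1.83.

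In the authors' deposited table of the same comparison, made with DESeq2, 17462 of the autosomal genes tested here had an adjusted p. The authors' deposited table called 4404 of these, 2536 higher in M and 1868 higher in F, and 3463 were called in both (84.0% of the calls made here and 78.6% of those in the authors' deposited table), with 0 in opposite directions.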

How the data were processed

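Messenger RNA of microdissected proximal tubules was measured in 12 samples, 3 in each of the 4 groups, and 13 libraries. The authors ran Salmon 0.13.1 on GRCm38, per the submitters' processing notes. For each transcript the deposited files hold estimated counts, which are not normalized, the TPM and an effective length. The authors' deposited table, made with DESeq2, holds a log2 fold change with its error, a p-value and its adjusted form, and a mean normalized count, which is a score not used here.

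Sums of estimated counts over the transcripts of a gene were rounded, and the 2 libraries of Sham M replicate 3 were added, as the series text says the authors did. Of 53392 genes, 53355 were found in GENCODE M21 by identifier, 49610 of them autosomal. All 12 samples entered a single edgeR fit (version 4.0.16, R 4.3.3) with TMM normalization, filterByExpr at its minimum count of 10 and total of 15, and a mean for each group. Quasi-likelihood F-tests gave the p-values. Benjamini-Hochberg adjustment ran over 18369 genes, of which the 17743 autosomal ones are reported; calls use an adjusted p under 0.05. To obtain the SE, the log2 difference was divided by the root of F. The common biological coefficient of variation was 0.3923, with 8 residual degrees of freedom. In a simulation of the injured comparison that changed 100 genes by 2-fold and 100 by 4-fold, 41% and 94% were recovered, with 4 false calls among 17760 genes. The changed genes were drawn from autosomal genes above a minimum mean CPM, and no simulated library stood apart as M replicate 3 does. Far fewer genes were changed than the 4122 called in the data. These shares are therefore not the sensitivity of the real comparison.

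Named genes are the 12 largest differences in each direction (called, protein-coding, a mean of 5 CPM or more where higher, libraries apart), up to 4 members of each list with the smallest p, 18 fixed genes, the 6 smallest p in each direction of the injury minus sham test, and members whose libraries are printed. Other list members, named for their direction, were chosen after their values were seen. Members and lists were chosen with earlier results of these data known. Where 2 gene records share a symbol, the record with more reads counts. Marker scores average the log2 CPM (prior count 2) over a list, centred on the tubule libraries. Depth was 41703814 to 47176088 estimated reads per injured library, so 3 counts over a group stand for 0.0226 CPM in M and 0.0212 CPM in F. Intervals and floors cover counting error only. DESeq2 1.42.0 was an alternative test, and the other alternatives and their effects are given at the close. Results of some genes are not reported here.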

Additional observations from a re-analysis of the deposited data

Results flagged for a closer look

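The male-female difference after injury differed from that after sham, by a test of the difference itself, for 153 autosomal genes. Among the genes described, the log2 difference after injury minus that after sham was positive for the injury and matrix genes Spp1 (3.08), Plin2 (4.02), Tgm2 (1.49) and Tagln2 (1.67). It was positive too for the lysosomal and vault genes Ctsl (3.26) and Mvp (1.84) and the death genes Mlkl (4.00) and Tnfrsf1a (1.48). Dap (1.49), Gsta2 (3.24), Srxn1 (1.46) and Glud1 (0.94) also had positive values. For Dap the injured M and F libraries overlapped, and every sham M library lay below every sham F library. Where such a value is positive, M stood higher against F after injury than after sham.

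It was negative for transport genes, namely Lrp2 (-1.61), Slco3a1 (-0.88), Slc6a20b (-1.14), Kcnj1 (-2.61) and Aqp3 (-2.68). Metabolic genes with a negative value were Odc1 (-1.24), Ido2 (-2.59), Acmsd (-1.54), Acox2 (-1.43), Hsd3b4 (-1.59), Agps (-1.90) and Degs2 (-1.83). The signalling and regulatory genes Casr (-2.26), Erbb4 (-1.94), Mecom (-1.66), Inpp5j (-2.19), Frzb (-2.30) and Mturn (-1.87) also had negative values. For Erbb4 the injured M and F libraries overlapped in TPM, so its value depends on the measure. The distal marker score moved with these groups, being highest in the injured F libraries, and with it as a covariate 0 of the 153 passed. Kcnj1, Aqp3 and Casr are themselves members of the score. The part of the score in the values was not tested beyond that fit.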

How the results depend on the processing

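The call count after injury, 4122 as reported, was 1650 with only the 2 groups in the fit and 1719 with the distal marker score as a covariate, which also turned the sign of Aqp3 to 0.082, Hsd11b2 to 0.305, Atp6v1b1 to 0.224, Insrr to 0.316, Kit to 2.761 and Slc4a1 to 0.452. Aqp3 and Hsd11b2 are members of that score. Leaving out each library gave 1816 (without IRI M replicate 2) to 8248 (without IRI M replicate 3) calls, the others of the injured libraries giving 1844 to 1998, and the 2 groups alone without IRI M replicate 3, a setting chosen after seeing the data, gave 9412. RLE normalization (4271), no filter on low counts (3739), a mean of at least 1 CPM (4507), DESeq2 (5605), length offsets (2860), adjustment over autosomal genes alone (4121), the first library of Sham M replicate 3 alone (3482) and a replicate block (3903) stayed within 1.5 times. RLE gave 61.6% and the block 50.4% of calls higher in M, against 55.4% as reported. The count for the injury minus sham test, 153, was 386 with no filter, 246 at a mean of at least 1 CPM, 1278 with DESeq2, 60 with length offsets, 53 with the replicate block and 0 with the distal covariate (3715 at an unadjusted p under 0.05), and ran from 19 (without IRI F replicate 2) to 5712 (without IRI M replicate 3). A fit of only 2 groups cannot give this test. The sham count, 1006, was 1863 with DESeq2 and 1630 with only the 2 groups, and ran from 520 (without Sham M replicate 2) to 2519 (without IRI M replicate 3). The causes were not tested. Of 206 genes considered for naming, 17 changed sign with the distal covariate, 5 of them called as reported, and 9 did under at least 1 other setting, 0 of them called as reported. Deviations of same-numbered injured M and F libraries correlated at 0.0545, 0.00904 and 0.0851, and those of differently numbered ones at -0.148 to 0.127. So few values cannot settle whether the replicate numbers pair libraries, and the block result describes a shared number only. At this depth and with 3 mice per group, 41% of the simulated 2-fold differences were recovered, in a simulation that changed few genes. This share is not the sensitivity of the real comparison.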
